A study of Mus musculus with 26 samples.

Results

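The 30 genes described here mark the oligodendrocyte lineage, the glial cells that make myelin in the brain. They were chosen by gene symbol as known markers of its stages: 7 genes of precursor cells, 5 of newly formed oligodendrocytes and 18 of myelinating oligodendrocytes. They are 30 of the 55487 genes in the count tables, and all 30 were among the 18050 genes with enough counts to be tested. RNA was sequenced from frontal cortex of 7 mice in which 1 allele of Adnp carries a frameshift (HET) and 7 wild-type littermates (WT), all adolescent. Open chromatin was given as 1 list of ATAC-seq peaks for HET and 1 for WT frontal cortex, ATAC-seq being an assay that finds where a transposase can enter the genome. The tissue was not sorted, so each library mixes neurons, glia and vessels, and the labels give no sex, litter or dissection batch. In such bulk samples, fewer cells of a type and less RNA per cell cannot be told apart.

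Oligodendrocyte precursors divide under growth factor signals that reach the cell through the PDGF receptor, then leave the cycle and pass through a short newly formed stage. The transcription factors SOX10 and MYRF switch on the myelin programme, and the mature cell wraps axons in a membrane rich in cholesterol and galactolipids and in proteins such as MBP and MOBP. In the cortex of adolescent mice, myelin is still being laid down, and it is denser in deep layers and in the white matter underneath than at the surface.

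Levels are given as CPM, the count of a gene relative to the scaled total of its library. HET libraries held 33280785 to 47079906 counts in all, and WT libraries 32814841 to 48291175. Adnp itself was at 5.34 to 8.68 CPM (median 6.43) in HET libraries and 5.67 to 7.84 CPM (median 6.19) in WT libraries, and its log2 fold change of 0.074 (SE 0.13) had an adjusted p of 0.772 (edgeR's quasi-likelihood test, Benjamini-Hochberg). A frameshift need not change the amount of RNA, so the labels are not checked by it. Across all genes tested, 106 rose and 69 fell in HET at an adjusted p under 0.05. A pair of HET libraries stood apart in the genes described here. HET 4 had the highest level of the 14 libraries in 18 of the 18 myelinating genes, and HET 6 had the lowest in 17 of them, WT 1 being lowest for Nkx6-2. How often HET 4 and HET 6 were highest or lowest over all genes tested was not counted. Results are therefore given with both libraries and, for some genes and summaries, without them.

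At the 5′ ends of the 30 genes, open chromatin was listed more often in HET than in WT. Within 1000 bases of the annotated 5′ end, 8 of the 30 genes had a peak in the HET list (63.6% of all genes tested did) and 3 of the 30 in the WT list (57.2% of all genes tested). The 3 genes with a peak in both lists were Tnr, Olig1 and Fa2h. Another 5, all of the myelinating stage (Myrf, Mobp, Ermn, Ugt8a and Trf), had one in the HET list and not in the WT list, against 8.08% of all genes tested. Of genes with a HET promoter peak, 5 of 8 among the 30 and 12.7% of all lacked one in the WT list. The HET list is longer, with 30862 peaks over 14616950 bases against 19272 peaks over 10414419 bases in the WT list, and there is 1 list per genotype, so these counts have no replicate check. With the HET list limited to its 19272 widest peaks, 5 of the 30 genes had a HET promoter peak (57.7% of all genes). Of the 30, 3 had one in the HET list alone (4.68% of all genes), 2 in both lists and 1 in the WT list alone. The narrowest peak kept was 345 bases, so the HET promoter peaks of Mobp (328 bases), Ermn (266 bases) and Fa2h (172 bases) were lost. None of the 5 newly formed genes had a promoter peak in either list.

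Promoters of 3 genes with a 5′ end peak in the HET list alone are shown here, with a gene that had a peak in both lists and myelin genes that had none. Each line gives the 250 bases before a RefSeq start site on GRCm38.p6, read 5′ to 3′ on the strand of the gene. Capitals mark letters that SOX proteins can bind (ACAAAG or ACAATG) and letters that MYRF can bind (CTGGCAC or CTGGTAC), on either strand. The first, of Tnr, lies on the plus strand at chr1:159523519-159523768, under a peak of both lists. That of Mobp lies on the plus strand at chr9:120149492-120149741, Ermn on the minus strand at chr2:58052865-58053114 and Ugt8a on the minus strand at chr3:125938653-125938902, each under a HET peak alone. Mog, on the minus strand at chr17:37023399-37023648, and Cnp, on the plus strand at chr11:100574689-100574938, had no peak there in either list.
Tnr: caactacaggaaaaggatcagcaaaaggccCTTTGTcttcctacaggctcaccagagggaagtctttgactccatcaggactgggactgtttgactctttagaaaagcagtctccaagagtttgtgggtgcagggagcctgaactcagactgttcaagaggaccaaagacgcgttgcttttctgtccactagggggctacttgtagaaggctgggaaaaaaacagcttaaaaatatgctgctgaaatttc
Mobp: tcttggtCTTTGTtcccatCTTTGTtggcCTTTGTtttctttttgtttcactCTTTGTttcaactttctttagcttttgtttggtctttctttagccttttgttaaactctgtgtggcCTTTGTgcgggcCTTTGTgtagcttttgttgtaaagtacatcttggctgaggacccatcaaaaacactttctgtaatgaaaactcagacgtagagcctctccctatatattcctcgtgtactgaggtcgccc
Ermn: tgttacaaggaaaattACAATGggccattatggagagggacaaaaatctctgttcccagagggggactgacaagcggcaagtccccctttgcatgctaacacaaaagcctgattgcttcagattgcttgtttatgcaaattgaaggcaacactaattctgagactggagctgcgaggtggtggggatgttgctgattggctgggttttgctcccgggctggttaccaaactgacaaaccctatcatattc
Ugt8a: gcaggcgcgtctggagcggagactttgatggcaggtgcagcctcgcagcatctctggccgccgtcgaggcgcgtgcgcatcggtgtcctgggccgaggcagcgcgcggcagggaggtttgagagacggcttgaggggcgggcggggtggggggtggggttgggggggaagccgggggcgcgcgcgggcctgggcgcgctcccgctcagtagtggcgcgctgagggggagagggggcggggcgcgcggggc
Mog: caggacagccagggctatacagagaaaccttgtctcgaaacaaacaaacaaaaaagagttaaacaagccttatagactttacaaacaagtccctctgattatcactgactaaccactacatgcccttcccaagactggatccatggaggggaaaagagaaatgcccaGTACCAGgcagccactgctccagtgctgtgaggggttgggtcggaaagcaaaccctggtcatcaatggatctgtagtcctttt
Cnp: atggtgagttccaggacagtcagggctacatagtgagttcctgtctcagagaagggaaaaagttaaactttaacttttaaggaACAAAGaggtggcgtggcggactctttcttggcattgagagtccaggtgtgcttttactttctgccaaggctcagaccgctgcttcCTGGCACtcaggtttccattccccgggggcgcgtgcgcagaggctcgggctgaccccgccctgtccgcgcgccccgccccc

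The Mobp promoter held 6 matches to the SOX letters, all written as CTTTGT on the strand shown, and its guanine and cytosine content was 40.8%. Ermn and Tnr held 1 SOX match each, Mog held 1 MYRF match, and Cnp held 1 of each kind. The Ugt8a promoter held no match to either and differed in composition, with 76.8% guanine and cytosine and 32 CpG dinucleotides. Across the 25 RefSeq promoters of 20 of the 30 genes, 44.0% held the SOX letters (25.2% of all 32851 promoters) and 16.0% held the MYRF letters (5.93% of all). By gene, 9 of the 20 held the SOX and 3 the MYRF letters. Overlapping windows of Mag share a match of each kind, and Gjb1 held SOX letters in more than 1 of its promoters. An E-box that OLIG factors can bind, CAGCTG, was in 4.0% of the 25, the Aspa promoter alone, and in 13.0% of all promoters. No matches of different motifs overlapped, and a match is a run of letters and not a measured binding site. Among all RefSeq promoters, those with no peak in either list had a median guanine and cytosine content of 48.4%, those under a HET peak alone 58.0%, and those under a peak of both lists 62.4%.

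The HET peak at Mobp covered chr9:120149405-120149732, across the annotated 5′ end of the gene, which encodes a protein of compact myelin. The HET peak at Ermn, which encodes a cytoskeletal protein of the myelin sheath, covered chr2:58052865-58053130 and ended at the base before the 5′ end. At Ugt8a, which encodes the enzyme that makes galactosylceramide, it covered chr3:125938424-125939075. The HET peak at Myrf lay at chr19:10240517-10240885 and that at Trf, which encodes the iron carrier transferrin, at chr9:103230372-103230819. At Tnr, the HET peak (chr1:159523336-159524358) contained the WT peak (chr1:159523496-159524211). Farther inside the genes, Mbp had 8 HET and 2 WT peaks within its body and none at its 5′ end, and Tnr had 14 HET and 7 WT peaks in and around it. Cspg5 had 2 HET peaks inside the gene, at chr9:110245117-110245797 and chr9:110250061-110250366, and no WT peak. Over whole genes, 7 of the 30 had a peak in the HET list alone, against 9.67% of all genes tested, and the HET list is the longer one. Nkx2-2 had 1 WT peak inside the gene, at chr2:147180643-147181112, and no HET peak, while Pdgfra, Cspg4 and Enpp6 had 1 peak in each list.

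**Figure D1:**
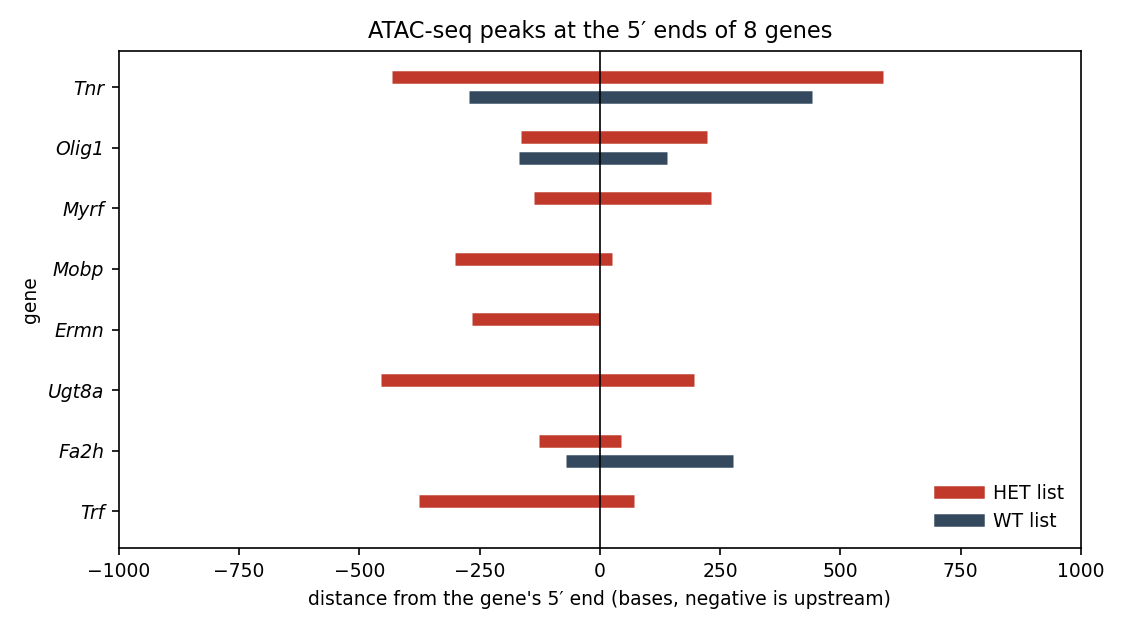
Deposited ATAC-seq peaks at the 5′ ends of the 8 genes with a promoter peak, with the distance from the 5′ end in bases on the horizontal axis and 1 bar per peak (red, HET list; dark blue, WT list). Tnr, Olig1 and Fa2h have a bar from each list, and Myrf, Mobp, Ermn, Ugt8a and Trf have a bar from the HET list alone.

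The myelin genes were the most abundant of the 30 when levels were set per kilobase of exon. Mbp, the main structural protein of compact myelin, was at 300 ± 103 CPM per kilobase in HET and 273 ± 55.3 in WT (SD, n = 7 each). Mobp, Cldn11, Mal, Cnp and Trf followed, at 108 to 129 CPM per kilobase in HET and 95.4 to 112 in WT, and among these 5 no neighbours in the WT order differed beyond 1 SD. The transcription factor Olig1 came next at 69.8 ± 22.1 CPM per kilobase in HET and 64.8 ± 12.4 in WT. The lowest levels belonged to the newly formed genes Enpp6, Neu4, Bmp4 and Nkx2-2, at 1.46 to 2.07 CPM per kilobase in HET and 1.45 to 1.91 in WT. Mbp made up 45.4% of the summed CPM of the 18 myelinating genes in HET and 46.0% in WT, and Mobp 15.8% in HET and 15.2% in WT.

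**Figure D2:**
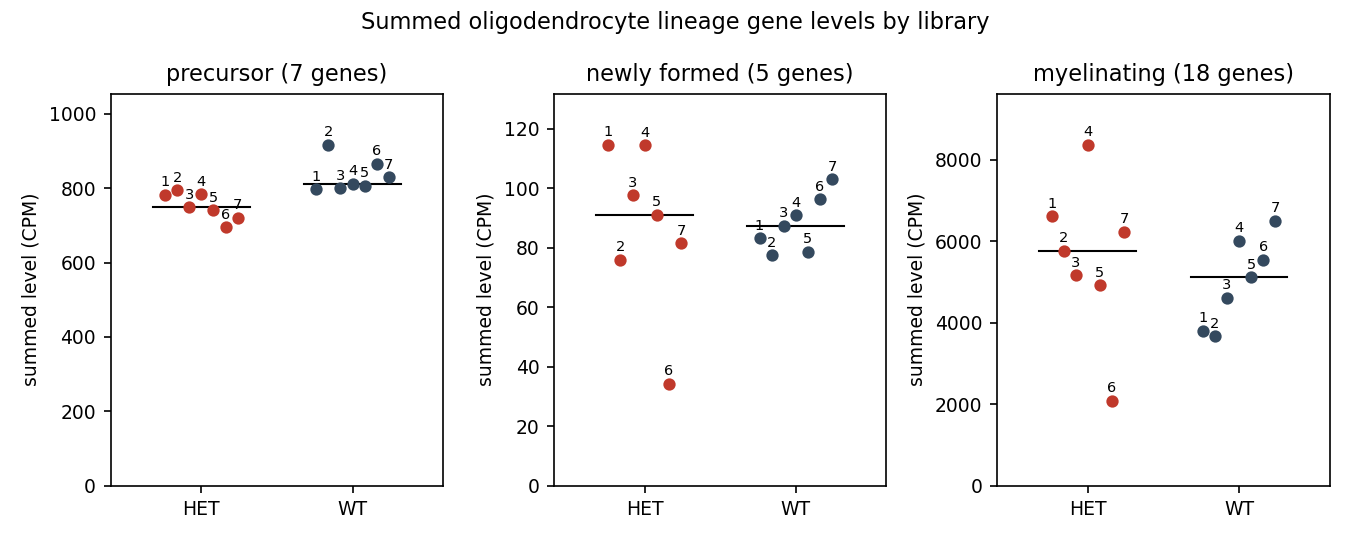
Summed level of the genes of each stage in CPM for each library (points, numbered by replicate; red, HET; dark blue, WT), with the median of each genotype as a line. Myelinating sums run from 2082 CPM in HET 6 to 8368 CPM in HET 4 and from 3664 to 6506 CPM in WT. Each of the 7 HET precursor sums lies below the lowest WT sum, narrowly so for HET 2 (795.8 CPM, against 797.2 CPM in WT 1).

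None of the 30 genes passed an adjusted p of 0.05 between HET and WT in edgeR's quasi-likelihood test, against 0.97% of all genes tested (0.382% of all genes were called lower). At an unadjusted p under 0.05 there were 2 of the 30, Cspg5 and Tnr, both lower in HET, against 10.4% of all genes that were lower and 22.2% in either direction. With DESeq2 or limma-voom, 1 of the 30 was called, Cspg5, lower in HET (3.6% of all genes were called lower by DESeq2 and 5.46% by limma-voom). The limma-voom fit weighted each library, with the lowest weights for HET 6 (0.294), HET 4 (0.505) and WT 4 (0.548). The HET and WT ranges overlapped for all 30 genes (0.715% of all genes had ranges that did not). The fitted log2 fold change was positive for 22 of the 30 and negative for 8, and its median was -0.019 over the precursor genes, 0.11 over the newly formed and 0.15 over the myelinating genes, against 0.017 over all genes tested. As all 30 were fitted on the same 14 libraries, these signs are not independent of each other.

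**Figure D3:**
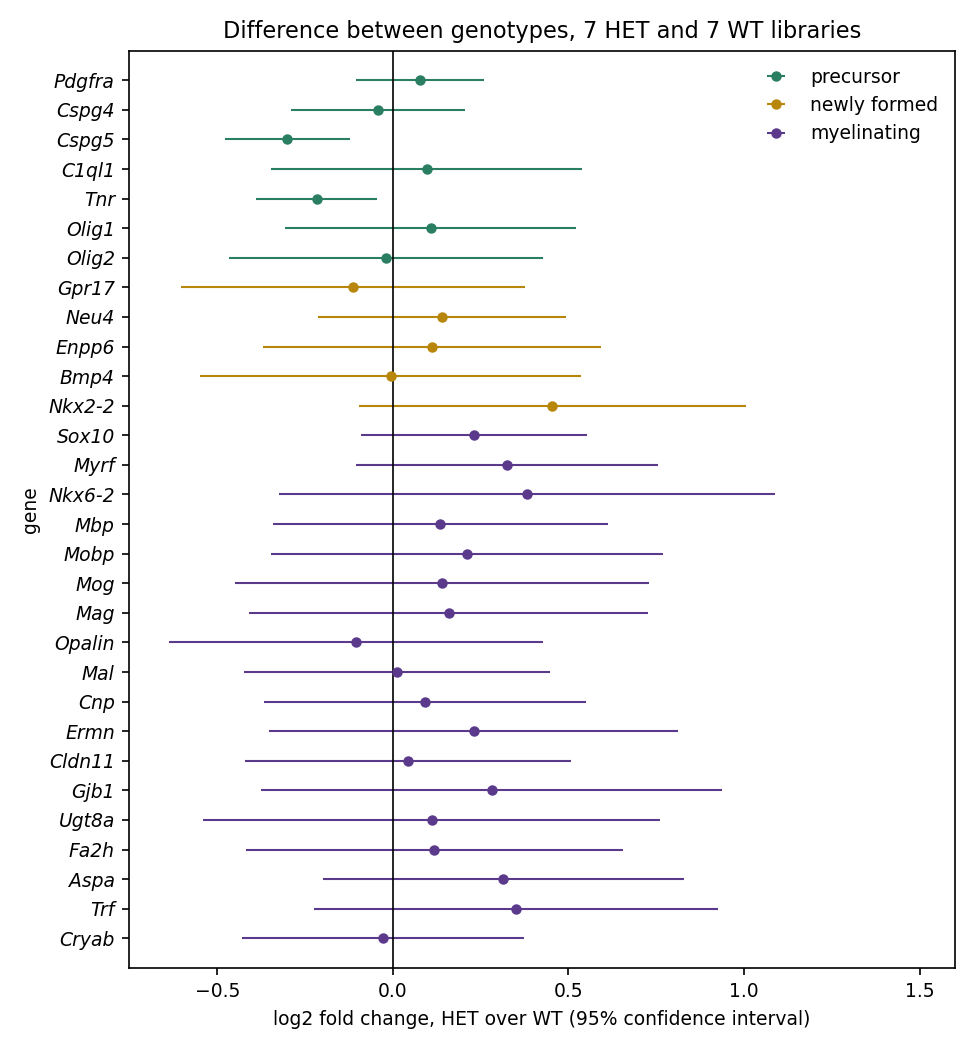
Fitted log2 fold change of each gene, HET over WT, with its 95% confidence interval (green, precursor; ochre, newly formed; purple, myelinating). The intervals of Cspg5 and Tnr lie below 0, and those of the other 28 genes include 0.

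Among the precursor genes, Cspg5 and Tnr had lower values in HET. Cspg5 (chr9:110243783-110262576) encodes a surface proteoglycan that neurons also make, and Tnr encodes tenascin-R, a matrix protein of perineuronal nets. Cspg5 had 234, 272, 281, 219, 294, 313 and 266 CPM in HET 1 to HET 7, against 337, 380, 350, 301, 327, 335 and 286 CPM in WT 1 to WT 7. Of the 7 HET libraries, 5 were below the lowest WT library and all 7 were below the WT median. The HET mean was 269 ± 32.8 CPM and the WT mean 331 ± 30.97 CPM (SD, n = 7 each), a log2 fold change of -0.30 (SE 0.084, 95% interval -0.48 to -0.12) and an adjusted p of 0.0787 by edgeR's quasi-likelihood test. Without HET 6 its adjusted p in the same edgeR test was 0.0359 (2.77% of all genes were then called lower), and without WT 4 it was 0.0336. Leaving out any of the other 12 libraries gave an adjusted p of 0.0699 to 0.154 in that test. At a threshold of 0.1 on all libraries, Cspg5 was the 1 gene of the 30 that passed, against 6.62% of all genes and 3.11% for genes lower in HET. The adjusted p was 0.0217 with DESeq2 and 0.0168 with weighted limma-voom, in which HET 6 and WT 4 counted for less. HET 4 and HET 1, the lowest libraries in Cspg5, were also the lowest in the summed excitatory neuron markers. WT 4, the lowest WT library in those markers (3105 CPM), had more Cspg5 (301 CPM) than each HET library except HET 6. With the mean of those markers as a covariate the edgeR log2 fold change of Cspg5 was -0.15 (adjusted p 0.329). The part of neuron content in the Cspg5 values was not tested.

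Tnr had 194, 199, 199, 172, 206, 206 and 189 CPM in HET 1 to HET 7, against 240, 291, 221, 189, 208, 222 and 215 CPM in WT 1 to WT 7. All 7 HET libraries were below each WT library except WT 4, and below the WT median. Its log2 fold change was -0.22 (SE 0.081, 95% interval -0.39 to -0.044), with an adjusted p of 0.142 (edgeR's quasi-likelihood test), and of 0.0486 without WT 4, when 2 of the 30 genes and 4.83% of all genes were called lower in HET. Leaving out any other library gave an adjusted p of 0.101 to 0.250 in the edgeR test, and with the excitatory marker covariate the log2 fold change of Tnr was -0.10 (adjusted p 0.623). The Tnr promoter printed above lay under a peak of both lists. Of its exon bases, 3.44% are shared with a gene on the opposite strand, and Cspg5 shares none.

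The other precursor genes showed no such shift. Olig1, the transcription factor with the highest level per kilobase of the 7, ranged from 76.3 to 223 CPM (median 140) in HET and from 110 to 177 CPM (median 141) in WT. Both ends of the HET range lay outside the WT range, HET 6 at the bottom and HET 4 at the top, and the medians nearly coincided. Its log2 fold change was 0.11 (SE 0.19, adjusted p 0.785 in edgeR's quasi-likelihood test). Olig2, its partner in specifying the lineage, had a log2 fold change of -0.019. Pdgfra, the PDGF receptor of precursor cells, had 0.078, with values from 51.3 to 71.2 CPM in HET and from 49.4 to 67.3 CPM in WT. Cspg4, the NG2 proteoglycan, had -0.042, and C1ql1, a secreted ligand, had 0.096. The adjusted p values of these 5 genes ran from 0.627 to 0.967 in the edgeR test.

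Summed over the 7 precursor genes, the level was 695 to 796 CPM (median 749) in HET and 797 to 917 CPM (median 812) in WT. The 7 HET sums were thus all below the lowest WT sum, but narrowly, with 795.8 CPM in HET 2 and 797.2 CPM in WT 1. How often sums of other genes separate in this way was not tested. The sums over 20 further precursor genes overlapped, at 889 to 1019 CPM (median 985) in HET and 942 to 1098 CPM (median 953) in WT. Cspg5 and Tnr gave a median of 63.2% of the sum over the 7 genes in HET and 66.2% in WT. Taken by themselves, these 2 genes summed to 391 to 519 CPM in HET and 489 to 671 CPM in WT, with 5 HET libraries below the lowest WT library. The other 5 precursor genes summed to 176 to 393 CPM (median 268) in HET and 221 to 329 CPM (median 273) in WT, and the ranges overlapped widely. This split of the sum was made after the values were seen.

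Genes of newly formed oligodendrocytes were spread more widely among HET than among WT libraries, with a median coefficient of variation of 35.1% in HET, 25.7% in HET without HET 6 and 19.2% in WT. Without HET 6 it was 17.2% in HET for Gpr17 (10.8% in WT) and 34.4% for Nkx2-2 (35.8% in WT). Gpr17, a receptor that is on for a short time as precursors mature, had 75.2, 46.7, 64.7, 69.8, 59.8, 17.1 and 53.1 CPM in HET 1 to HET 7, against 59.8, 52.3, 60.5, 55.6, 54.2, 64.7 and 70.8 CPM in WT 1 to WT 7. HET 6 stood well below all others and HET 1 just above the highest WT library. The log2 fold change of Gpr17 was -0.11 (SE 0.23, adjusted p 0.811 in edgeR's quasi-likelihood test). Enpp6, a choline phosphodiesterase of newly formed cells, was at 4.80 to 19.6 CPM (median 13.0) in HET and 10.05 to 16.2 CPM (median 11.2) in WT. HET 6 was the lowest and HET 4 the highest of the 14 libraries, and the log2 fold change was 0.11 (SE 0.23, edgeR adjusted p 0.810). Neu4, a sialidase, was at 6.10 to 14.1 CPM (median 8.98) in HET and 7.32 to 9.99 CPM (median 8.98) in WT, with 3 HET libraries above and 2 below the whole WT range. Its log2 fold change was 0.14 (SE 0.17, edgeR adjusted p 0.657).

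Nkx2-2, a homeodomain factor that acts as precursors begin to differentiate, had the largest log2 fold change of the 30 genes, 0.45 (SE 0.26, 95% interval -0.097 to 1.01, adjusted p 0.312 in edgeR's quasi-likelihood test). It was at 2.97 to 9.23 CPM (median 4.99) in HET and 3.06 to 7.11 CPM (median 3.49) in WT, and 6 of the 7 HET libraries were above the WT median. Of its exon bases 9.67% are shared with an antisense gene, Nkx2-2os, and with strand ignored in counting, reads over the overlap were left out by default. Bmp4, a secreted signal, was the least alike of the 5, highest in HET 5 and lowest in HET 4, with a log2 fold change of -0.0061. Summed over the 5 genes, the level was 34.3 to 115 CPM (median 91.1) in HET and 77.4 to 103 CPM (median 87.4) in WT.

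The myelinating genes varied together across libraries, and more among HET than among WT. Their summed level was 6608, 5765, 5169, 8368, 4925, 2082 and 6229 CPM in HET 1 to HET 7, against 3804, 3664, 4609, 6011, 5123, 5543 and 6506 CPM in WT 1 to WT 7. HET 6 was below and HET 4 and HET 1 were above the whole WT range, and the other 4 HET libraries were inside it. The ratio of HET 4 to HET 6 ran from 2.30 to 7.77 over the 18 genes (median 4.09), from 0.482 to 4.09 over the newly formed genes and from 0.700 to 3.09 over the precursor genes. Cspg5, Tnr and Bmp4 were the 3 of the 30 that were lower in HET 4 than in HET 6. The median coefficient of variation of the 18 genes was 36.6% in HET and 22.1% in WT, and 21.1% in HET without HET 6.

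**Figure D4:**
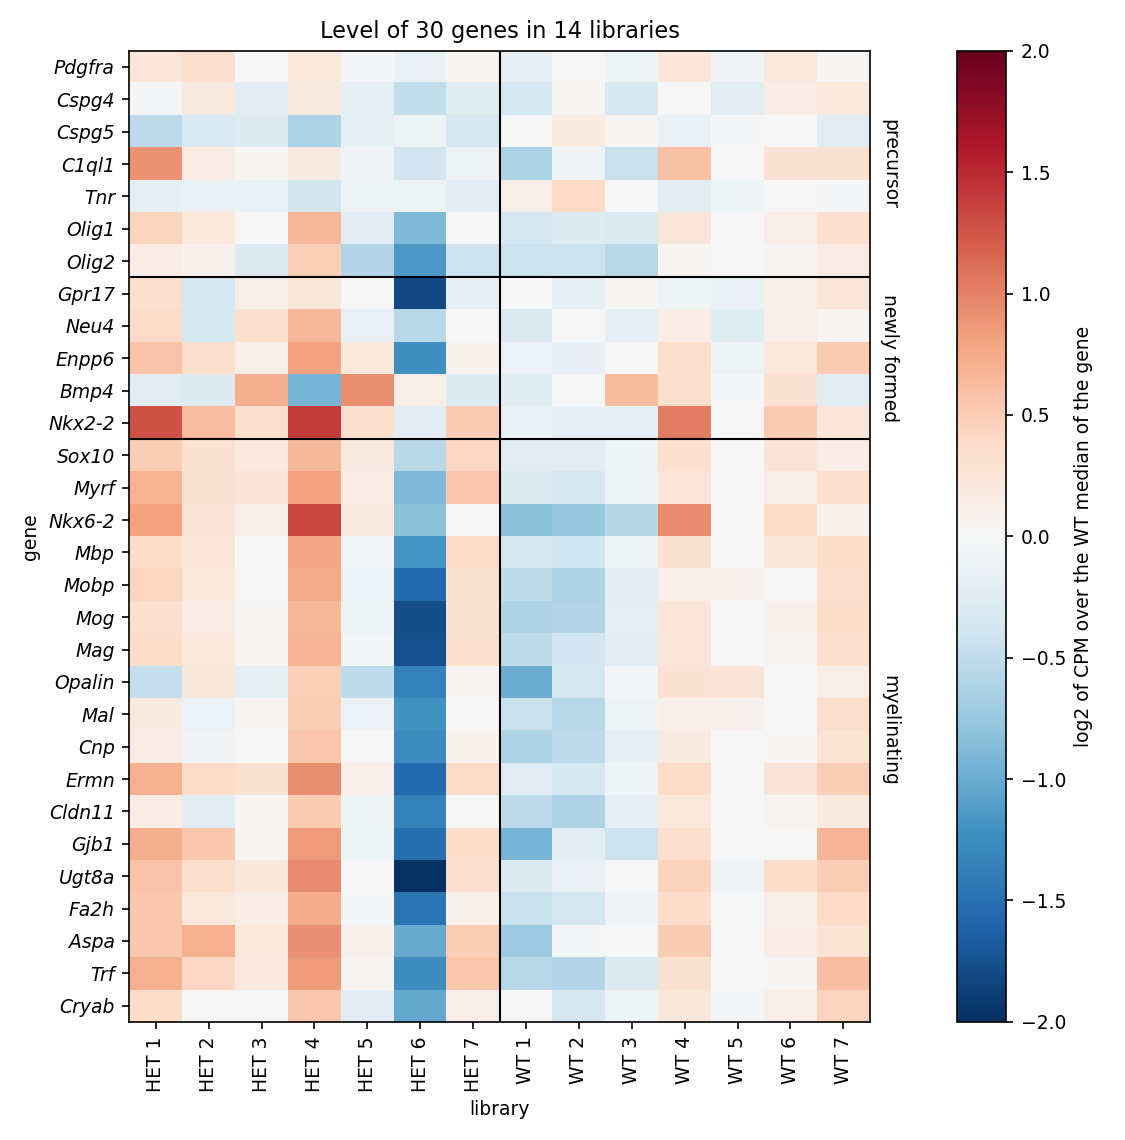
Level of each gene in each library as the log2 of its CPM over the WT median of that gene (red, higher; blue, lower), with HET libraries left of WT libraries and the stages separated by lines. HET 4 is red and HET 6 blue in each of the 18 myelinating genes, with medians over them of 0.74 in HET 4 and -1.30 in HET 6.

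Mbp had 2924, 2661, 2250, 3850, 2216, 994 and 2893 CPM in HET 1 to HET 7, against 1807, 1708, 2133, 2763, 2252, 2637 and 2905 CPM in WT 1 to WT 7. All but HET 1, HET 4 and HET 6 were inside the WT range. Its log2 fold change was 0.13 (SE 0.22, 95% interval -0.34 to 0.61), with an adjusted p of 0.764 (edgeR's quasi-likelihood test). With 1 library left out, the log2 fold change of Mbp ran from 0.0051 to 0.27. Mobp, whose promoter with its SOX letters is printed above, was at 277 to 1349 CPM (median 935) in HET and 522 to 1029 CPM (median 810) in WT. HET 6 was the lowest and HET 4 the highest library, and the log2 fold change was 0.21 (SE 0.26, edgeR adjusted p 0.674). Cldn11, the claudin that seals the layers of the sheath, was at 85.6 to 311 CPM (median 220) in HET and 143 to 253 CPM (median 218) in WT. HET 6 was again the lowest library and HET 4 the highest, and the log2 fold change was 0.043 (SE 0.22, edgeR adjusted p 0.928).

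Myrf and Sox10, regulators of the myelin programme, had the smallest p values of the 18 genes. Myrf, the factor that starts transcription of myelin genes, had 110, 84.6, 81.5, 119, 76.1, 37.0 and 99.3 CPM in HET 1 to HET 7, against 56.5, 54.0, 64.3, 80.6, 68.4, 75.2 and 85.9 CPM in WT 1 to WT 7. All HET libraries but HET 6 were above the WT median, and 3 of them were above the highest WT library. The log2 fold change of Myrf was 0.33 (SE 0.20, 95% interval -0.10 to 0.75), with an adjusted p of 0.355 by edgeR's quasi-likelihood test, and without HET 6 it was 0.46 with an adjusted p of 0.0518. Without HET 4 it was 0.23 (edgeR adjusted p 0.557), and without both it was 0.38 (edgeR adjusted p 0.108). Sox10, which is on throughout the lineage and works with MYRF, was at 33.4 to 77.0 CPM (median 60.4) in HET and 42.0 to 62.4 CPM (median 49.3) in WT. Again all HET libraries but HET 6 were above the WT median, and its log2 fold change was 0.23 (SE 0.15, edgeR adjusted p 0.381). With 1 library left out, the log2 fold change of Sox10 ran from 0.16 to 0.33 (edgeR adjusted p 0.0695 to 0.591). Nkx6-2, another homeodomain regulator, was at 9.25 to 41.1 CPM in HET and 9.23 to 31.6 CPM in WT libraries. For Nkx6-2 the log2 fold change was 0.38 (SE 0.33). It shares 12.9% of its exon bases with Inpp5a on the opposite strand.

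The remaining 12 myelinating genes had log2 fold changes from -0.10 (Opalin) to 0.35 (Trf), and adjusted p values from 0.463 to 0.981 in the edgeR test. Among the membrane and surface proteins, Mog, Mag and Opalin had 0.14, 0.16 and -0.10, Mog and Mag being proteins of the sheath's outer and inner surface. Mal, a proteolipid of myelin rafts, and Cnp, a protein of the uncompacted sheath, had 0.011 and 0.092, and the cytoskeletal gene Ermn had 0.23. The connexin gene Gjb1 had 0.28, and the genes for lipid enzymes Ugt8a, Fa2h and Aspa had 0.11, 0.12 and 0.31. Cryab, a small chaperone, had -0.028 and shares 17.04% of its exon bases with Hspb2. The 5 genes with a promoter peak in the HET list alone had log2 fold changes of 0.33 (Myrf), 0.21 (Mobp), 0.23 (Ermn), 0.11 (Ugt8a) and 0.35 (Trf), none of which passed the test.

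On all libraries the median log2 fold change of the myelinating genes was 0.15, with 16 positive and 2 negative. It moved in opposite directions when HET 6 or HET 4 was left out. Without HET 6, 18 of the 18 myelinating genes had a positive log2 fold change, with a median of 0.31. By edgeR's quasi-likelihood test 7 were at an unadjusted p under 0.05, and none was called, against 6.09% of all genes. The share of all genes at an unadjusted p under 0.05 was 22.2% with all libraries and was not taken with libraries left out. Without HET 4 the median was 0.028, with 11 positive and 7 negative. Without both, it was 0.22, with 16 positive and 2 negative, 2 at an unadjusted p under 0.05 and none called (0.661% of all genes were). The newly formed median was 0.22 without HET 6, 0.024 without HET 4 and 0.14 without both.

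Across libraries, excitatory neuron markers tended to be low where the myelinating genes were high, and thalamic neuron markers tended to be high there. The summed level of 12 excitatory neuron markers was 1140 to 6574 CPM (median 3668) in HET and 3105 to 7636 CPM (median 5836) in WT, lowest in HET 4 and, within HET, highest in HET 6. In WT, WT 1 and WT 2 had the highest excitatory sums and the lowest myelinating sums. The excitatory markers, of which Camk2a was the highest per kilobase, had negative log2 fold changes in 12 of 12 genes, with a median of -0.83, and 0 of 12 were called. The 12 thalamic neuron markers, led by Calb2, summed to 376 to 2691 CPM (median 779) in HET and 388 to 1121 CPM (median 446) in WT, lowest in HET 6 and highest in HET 4. Their median log2 fold change was 1.14, 0 of 12 were called, and Gbx2 was at 0 in at least 1 library.

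**Figure D5:**
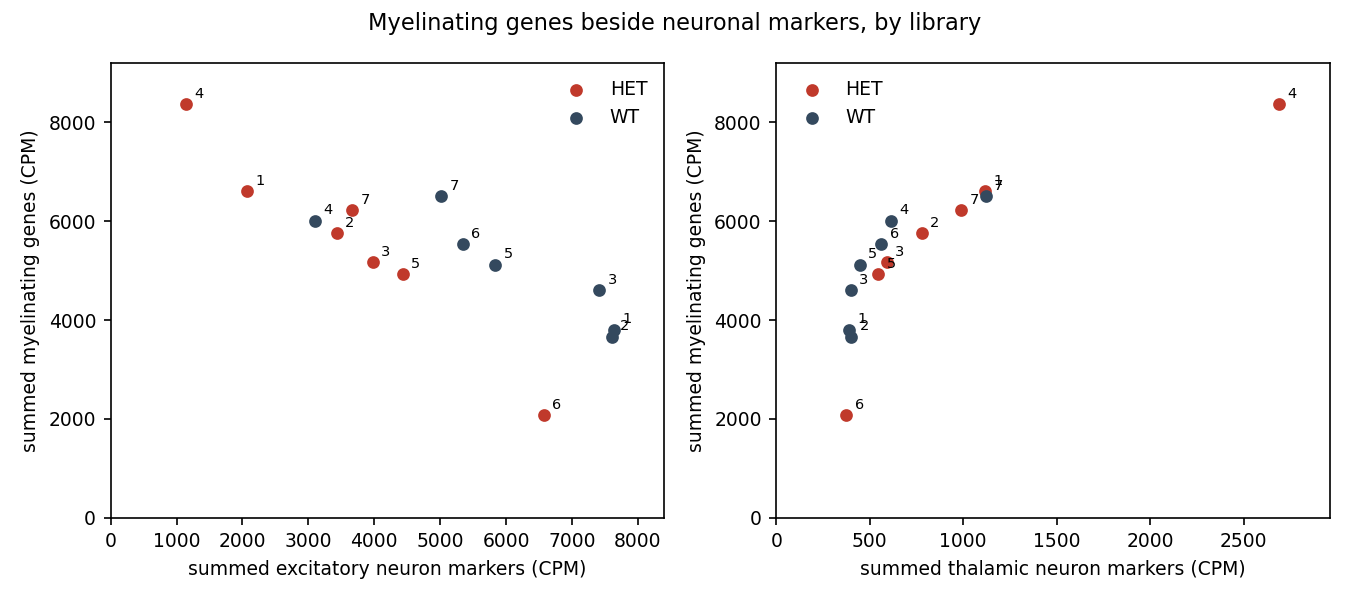
Summed level of the 18 myelinating genes against the summed level of 12 excitatory neuron markers (left) and 12 thalamic neuron markers (right), in CPM, for each library (points numbered by replicate; red, HET; dark blue, WT). HET 4 has the lowest excitatory sum (1140 CPM) and the highest thalamic sum (2691 CPM), and HET 6 lies lowest in myelinating genes (2082 CPM) with a thalamic sum of 376 CPM.

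With the mean of the excitatory markers as a covariate, the fitted direction turned. The median log2 fold change was then -0.21 over the precursor, -0.20 over the newly formed and -0.30 over the myelinating genes, 29 of the 30 genes were negative (Bmp4 was positive, at 0.23), and 0 of 30 were called by edgeR's quasi-likelihood test. The excitatory markers were lower in HET at the median (3668 CPM summed, against 5836 CPM in WT), with overlapping ranges and no test of the sums. Genotype and tissue makeup therefore cannot be told apart by this fit. Of the other marker lists, choroid plexus summed to 36.9 to 754 CPM in HET, with HET 6 highest, and 11.7 to 451 CPM in WT. Striatal neuron markers summed to 447 to 3831 CPM in HET and 390 to 2747 CPM in WT. Astrocyte markers summed to 2400 to 3329 CPM in HET and 2284 to 2896 CPM in WT, microglia markers to 316 to 449 CPM in HET and 405 to 466 CPM in WT, and interneuron markers to 1211 to 1931 CPM in HET and 1497 to 1851 CPM in WT. Endothelial and mural markers summed to 505 to 577 CPM in HET and 485 to 571 CPM in WT, and meningeal markers to 112 to 220 CPM in HET and 92.8 to 240 CPM in WT. No gene of these lists was called, and the part of tissue makeup in the differences among the 30 genes was not tested further.

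Further genes of mature oligodendrocytes also had HET 4 and HET 6 at the ends of their range. Of 44 further myelinating genes, 0 were called, 36 had a positive and 8 a negative log2 fold change, and the median was 0.17. HET 4 was the highest library in 31 of the 44 and HET 6 the lowest in 37. Of 20 further precursor genes 0 were called (median 0.0067), and Kcnk1, a potassium channel gene and the highest of them per kilobase, had a log2 fold change of -0.33 (edgeR adjusted p 0.101). Of 15 further newly formed genes 0 were called (median 0.082), and Cyfip2, the highest of these and a gene that neurons express too, had -0.28 (edgeR adjusted p 0.244).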

How the data were processed

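RNA was poly-A selected total RNA from frontal cortex of 7 HET and 7 WT mice, read as pairs of 150 bases, per the labels' protocols. The authors deposited raw counts per gene. Reads over exons were counted by featureCounts 2.0.1, per the file headers, against Ensembl GRCm38, release 102, with strand ignored (setting 0) and no option for counting pairs, so each mate can count. Reads over exons of more than 1 gene were left out by default, which touches 11 of the 30 genes. STAR, Trimmomatic and DESeq2 were named without versions, per the submitters' processing notes. The other deposited values are 2 ATAC-seq peak lists (chromosome, start, end on mm10, the same assembly), 1 per genotype; MACS3 is named in the submitters' processing notes, and its settings, the depth and which of the 3 HET and 3 WT libraries were merged were not given in the sources used here. Hi-C, PAT and Control samples were not analysed here.

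Of 55487 genes, 55141 IDs matched a symbol. Of 235 list entries, 234 matched (Tmem2 did not) and 1 with more than 1 ID (Dlx6os1) was left out. filterByExpr left 18050 genes; TMM scaling and edgeR 4.0.16 (R 4.3.3, two-sided robust quasi-likelihood test, no term beside genotype) gave log2 fold changes, HET over WT, and Benjamini-Hochberg adjusted p over all genes tested, with a threshold of 0.05. The steps were tested on simulated data. The common biological coefficient of variation was 0.248, and all 91 library pairs differed by at least 9.38 per degree of freedom (chi-square), so no library was a copy. The labels name 7 mice per genotype, and p-values cover the spread between these. The 30 genes, the gene lists and the tests were chosen with earlier results of these data known. Named in full were genes called, the 3 highest per kilobase in WT and the 2 of smallest p in each stage, and in further lists the called genes and the highest; results of 2 such genes are not reported here. The fit was repeated with DESeq2 1.42.0, with size factors of DESeq2 in edgeR and with limma-voom (limma 3.58.1), which weighted each library. It was also repeated with other filters, the replicate number as a block, an excitatory marker covariate and an adjusted p under 0.1. Each library was left out in turn, and other windows, overlaps and peak widths were used. Promoter sequences were RefSeq's (GRCm38.p6), found for 20 of the 30 genes.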

Additional observations from a re-analysis of the deposited data

Results flagged for a closer look

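In each group of 7 libraries, the gap between the highest or lowest library and its nearest neighbour was set against the whole range of log2 CPM (Dixon's test at its 95% critical value). Of 60 such groups (30 genes in each genotype), 17 stood out, all in HET and all with HET 6 lowest. Chance gives about 1 in 20 groups, and the 17 genes share 1 library, so they are not 17 separate events. The share of all genes tested that stood out in this way was not taken, nor how often HET 6 was the library. Among the newly formed genes, HET 6 had 17.1 CPM of Gpr17 and 4.80 CPM of Enpp6. Among the regulators it had 33.4 CPM of Sox10 and 37.0 CPM of Myrf. Among the proteins of the sheath it had 994 CPM of Mbp, 277 CPM of Mobp, 24.3 CPM of Mog, 58.6 CPM of Mag, 132 CPM of Mal and 173 CPM of Cnp. It also had 21.3 CPM of Ermn, 85.6 CPM of Cldn11, 5.32 CPM of Gjb1 and 135 CPM of Trf. Among the lipid enzymes it had 14.8 CPM of Ugt8a, 18.2 CPM of Fa2h and 8.47 CPM of Aspa. No precursor gene and no WT group stood out in this way.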

How the results depend on the processing

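Counts of called genes depended on the tool, while no alternative called any of the 30 genes higher in HET. Over all genes, DESeq2 called 722 higher and 681 lower, limma-voom 949 and 985, no filter 67 and 39, the excitatory covariate 13 and 1, and an adjusted p under 0.1 called 633 and 562. With HET 4 and HET 6 left out together, an alternative chosen after seeing the data, 82 were higher and 40 lower. Of the 30 genes, DESeq2, limma-voom and the threshold of 0.1 each called 1 lower. Leaving out 1 library at a time gave 10 to 791 genes higher and 1 to 881 lower over all genes, and 0 to 0 higher and 0 to 2 lower of the 30. The stage medians then ran from -0.09 to 0.09 (precursor), 0.02 to 0.22 (newly formed) and 0.03 to 0.31 (myelinating). The labels do not say that the replicate numbers pair the mice. Same-numbered libraries correlated at -0.28 to 0.33 in their deviations, and 1 of 7 correlated best with its own number. Such correlations also carry differences in tissue makeup, so they cannot settle whether the numbers pair mice. With the replicate number as a block, 7 genes were higher and 3 lower, none of the 30 among them, the myelinating median was 0.076 and Mal turned to -0.024.

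With the excitatory covariate the precursor median was -0.21, and log2 fold changes turned sign in Pdgfra (-0.050), C1ql1 (-0.24), Olig1 (-0.32), Neu4 (-0.20), Enpp6 (-0.33), Bmp4 (0.23), Nkx2-2 (-0.13), Sox10 (-0.059), Myrf (-0.051), Nkx6-2 (-0.33), Mbp (-0.30), Mobp (-0.27), Mog (-0.34), Mag (-0.30), Mal (-0.36), Cnp (-0.31), Ermn (-0.28), Cldn11 (-0.36), Gjb1 (-0.26), Ugt8a (-0.45), Fa2h (-0.38), Aspa (-0.10) and Trf (-0.12). Without HET 4 and HET 6, Gpr17 turned to 0.0037 and Bmp4 to 0.14. With 1 library left out, the sign turned for Cspg4 (-0.095 to 0.013), C1ql1 (-0.076 to 0.21), Olig1 (-0.012 to 0.22), Olig2 (-0.16 to 0.095), Gpr17 (-0.20 to 0.043), Enpp6 (-0.0086 to 0.26), Bmp4 (-0.19 to 0.11), Opalin (-0.24 to 0.024), Mal (-0.097 to 0.14), Cnp (-0.026 to 0.23), Cldn11 (-0.075 to 0.18), Ugt8a (-0.046 to 0.29), Fa2h (-0.0083 to 0.27) and Cryab (-0.13 to 0.092). The cause of these turns was not tested.

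Promoter peak counts were the same with 500 bases either side and with at least 100 bases of overlap. With 2500 bases either side, 10 of the 30 genes had a HET, 3 a WT and 7 a HET peak alone (67.3%, 60.1% and 8.73% of all genes). Over the whole gene, 15 had a HET, 9 a WT and 7 a HET peak alone (75.7%, 67.3% and 9.67% of all genes). A WT peak alone was found for 1 of the 30 and for 235 of all 18050 genes. With the widest HET peaks in equal number, 5 had a HET peak and 3 one in the HET list alone. At any RefSeq start site, also chosen after seeing the data, 5 of the 20 genes matched had a HET and 1 a WT peak (72.1% and 65.2% of 12776 genes). RNA depth limits no gene here, as the lowest value of the 30 in a library was 1.57 CPM (Bmp4 in HET 4). The depth of the ATAC-seq libraries was not given, and its part in the peak counts was not tested.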
